A study of Mus musculus with 9 samples.

Results

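The genes described here are the heat shock proteins and their partner chaperones, taken from an RNA-seq count table of mouse glioblastoma cells and astrocytes sorted from co-cultures. They were chosen by gene symbol, as protein-coding genes named Hsp, Dnaja, Dnajb, Dnajc or Cct2 to Cct8 and their relatives, and 78 of the 49315 gene IDs in the table met this rule. A further 14 matching IDs without a coding transcript were left out, as were the mitochondrial genes Hspa9, Hspd1, Hspe1, Dnajc15 and Dnajc19. Cct6a was kept because RefSeq lists it as coding, although GENCODE M21 does not. The 78 genes hold 3 of the HSP90 family, 10 of the HSP70 family, 3 of the HSP110 family, 2 genes for proteins that bind heat shock proteins, 8 small heat shock proteins, 4 DNAJA, 13 DNAJB and 26 DNAJC genes for J-domain proteins, and 9 genes of the CCT chaperonin and its relatives. Not all of these proteins sit in the cytosol. Hspa5, Hsp90b1, Hspa13 and several J-domain proteins belong to the endoplasmic reticulum, Dnaja3 and Dnajc11 are mitochondrial, and Hspb11 is better known as Ift25, a subunit of the intraflagellar transport machinery of cilia.

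The study asked how glioblastoma cells that have taken up mitochondria from astrocytes differ from those that have not. GFP-expressing SB28 cells, a glioblastoma line of C57BL6 mice, were grown for 2 days with primary neonatal astrocytes of mito::mKate2 mice on a C57BL6 background, in which the red protein mKate2 marks the mitochondria. The cells were then sorted into astrocytes, SB28 cells without mKate2 (mKate2-) and SB28 cells with mKate2 (mKate2+), with 3 libraries each. The paper names 3 distinct co-cultures as the biological replicates, so the libraries of a group come from separate co-cultures, which the groups may share. All 3 groups shared the same culture and the same serum-poor medium with N2, EGF and FGF and had no other treatment, so neither cell type was measured alone or after a heat shock. SB28 is 1 line, and the mKate2 transgene is driven by the CAG promoter in the cells of these mice in general and not in astrocytes only. The labels and the methods of the study assign the CellTrace Violet stain to different cells, and the libraries were taken by their names. Total counts ranged from 24454561 to 39287841 per library. Values are CPM, the reads of a gene scaled to the same library total in every library, and P values come from edgeR's quasi-likelihood test with Benjamini-Hochberg adjustment over all genes tested.

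The astrocyte libraries carried some astrocyte genes that were almost absent from SB28 cells. Slc1a3, a glutamate transporter, was measured at 173, 177 and 236 CPM in the astrocyte libraries, 1.10, 0.947 and 2.38 in the mKate2- libraries and 0.832, 0.560 and 1.11 in the mKate2+ libraries. Apoe, an apolipoprotein made by astrocytes, stood at 264, 260.3 and 270.2 CPM in the astrocyte libraries, 2.65, 2.67 and 3.22 in the mKate2- libraries and 2.66, 1.96 and 2.78 in the mKate2+ libraries. The groups were far apart for both genes. Of the 8 astrocyte markers that could be tested 6 were lower in each SB28 fraction, but 3 of these in mKate2- and 4 in mKate2+ cells passed the filter only through the astrocytes and had to differ, and 33.8% and 32.1% of all genes were lower. Gja1 was higher, in mKate2- cells not without mKate2- replicate 2 (0.39) or 3 (0.42), and Gjb6 had no counts. Clu was not lower in mKate2- cells, at 0.24 (adjusted P = 0.445). It passed there as higher without astrocyte replicate 3 (0.54, adjusted P = 0.0411). Summed over the 10 astrocyte markers, the level was 855, 847 and 1166 CPM in the astrocyte libraries and 383 to 417 CPM in the SB28 libraries, with Gja1 the most abundant.

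Genes of other lineages were also present in the astrocyte libraries. The 8 markers of the oligodendrocyte lineage summed to 847, 444 and 508 CPM there, against 17.1 to 27.0 CPM in SB28 cells, led by Olig1 at 541, 241 and 304 CPM, with Sox10 at or near 0 throughout. Of the 5 tested markers 3 were lower in each SB28 fraction, where 33.8% (mKate2-) and 32.1% (mKate2+) of all genes were. Olig2, for mKate2+ cells, passed the filter only through the astrocytes. The 6 markers of ciliated ependymal cells summed to 12.2, 9.78 and 81.4 CPM in the astrocyte libraries and at most 0.585 CPM in SB28 cells, led by Foxj1 at 8.91, 6.73 and 75.9 CPM, with Deup1 and Dynlrb2 at or near 0. Astrocyte replicate 3 thus stood apart in its ciliary genes, and also in Aqp4 at 5.64, 6.82 and 59.7 CPM over replicates 1 to 3. Of the 7 microglial markers, Cx3cr1 and Itgam were at or near 0 in the 9 libraries, and the list summed to 28.9 to 40.7 CPM in astrocytes and 47.6 to 61.3 CPM in SB28 cells, nearly all of it Tmem119. P2ry12 went the other way, with log2 fold changes of -6.50 in mKate2- and -5.39 in mKate2+ cells. These are a description, since only the astrocytes carried P2ry12 past the filter. The 5 fibroblast and mural markers summed to 1050.2 to 1492 CPM in astrocytes and 538 to 809.7 CPM in SB28 cells, led by Col1a2, with Dcn and Lum at or near 0 in SB28 cells. The 5 neuronal markers summed to 25.4, 54.6 and 51.0 CPM in astrocytes and 19.9 to 26.8 CPM in SB28 cells, with Rbfox3 at 0. The part of these other cells in the differences below was not tested.

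A second library stood apart among the SB28 cells. mKate2+ replicate 2 held 3.23% of its counts in genes with under 1000 bases of exon, against 1.30% to 1.85% in the other 5 SB28 libraries, and the mean exonic length behind its counts was 5071 bases against 5519 to 5637. It had the lowest CPM of the 6 SB28 libraries for 30 of 64 chaperone genes, or 46.9%, and for 47.3% of all genes tested, which are nearly the same share. Among the astrocytes, replicate 3 was the lowest of 3 for 34 of 66 chaperone genes, or 51.5%, against 34.0% of all genes. Where leaving out a library changed the call of a chaperone gene, the value without it is given.

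Heat shock proteins keep other proteins folded. HSP70 binds exposed stretches of unfolded chains in a cycle of ATP hydrolysis that J-domain proteins start and that nucleotide exchange factors such as HSP110 end, and HSP90 takes over many of these clients, above all kinases and receptors, with the help of co-chaperones. Small heat shock proteins hold unfolded chains without ATP, and the CCT ring folds actin and tubulin in a closed chamber. Heat shock factor 1 (HSF1) raises the stress-inducible members, such as Hspa1a, while cognate members such as Hspa8 and Hsp90ab1 are made in unstressed cells, and the unfolded protein response controls the members of the endoplasmic reticulum. Tumor cells commonly make more of these chaperones than their normal neighbours.

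Chaperone genes took a larger share of the counts in SB28 cells than in the astrocytes beside them, but single genes moved in both directions. Together the 78 genes took 15526.5, 15622 and 13532 CPM in the astrocyte libraries, 19888, 19309 and 20544 CPM in the mKate2- libraries and 20271, 17248 and 20617 CPM in the mKate2+ libraries. Every SB28 library was above every astrocyte library, and mKate2+ replicate 2 was the lowest of the SB28 libraries. In bulk RNA, fewer cells of a type and less RNA per cell cannot be told apart. A few genes made up most of the sum. Hsp90ab1 took 23.1% of it in astrocytes and 23.4% and 23.3% in the mKate2- and mKate2+ fractions, and Hspa8 took 20.0%, 15.5% and 15.3%. With Hspa5 and Hsp90b1 these 4 genes held 54.2%, 53.6% and 53.0%.

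Of the 66 chaperone genes that passed the filter on low counts, 28 were higher and 17 lower in mKate2- SB28 cells than in astrocytes, at an adjusted P value below 0.05. Of all 13356 genes tested, 29.3% were higher and 33.8% lower. Hspa1a and Hspb7, counted among the lower genes, passed the filter only through the astrocytes, so they had to differ. In mKate2+ cells 25 were higher and 15 lower, against 28.0% and 32.1% of 13342 genes. The astrocyte libraries are the same in both comparisons, so the second is no repeat of the first. With the further demand of a change above 1 on the log2 scale, 6 genes passed as higher and 8 as lower in mKate2- cells, where 11.5% and 22.4% of all genes were, and 7 and 9 in mKate2+ cells, where 12.2% and 22.8% were. The median log2 fold change of the chaperone genes was 0.19 in mKate2- cells and 0.28 in mKate2+ cells, against -0.04 and -0.02 for all genes tested. With a trend of expression on gene length removed from each library, the split moved to 39 higher and 9 lower in both comparisons, while the median of all genes moved up by 0.48 and 0.49. The chaperone median then lay 0.26 and 0.31 above that of all genes, against 0.23 and 0.30 without the removal. The new counts are thus no result about chaperone genes in particular. The plot of fold changes by family shows that the CCT and HSP90 genes lay to the right of 0, while the HSP70, small heat shock protein and J-domain genes were spread on both sides.

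**Figure D1:**
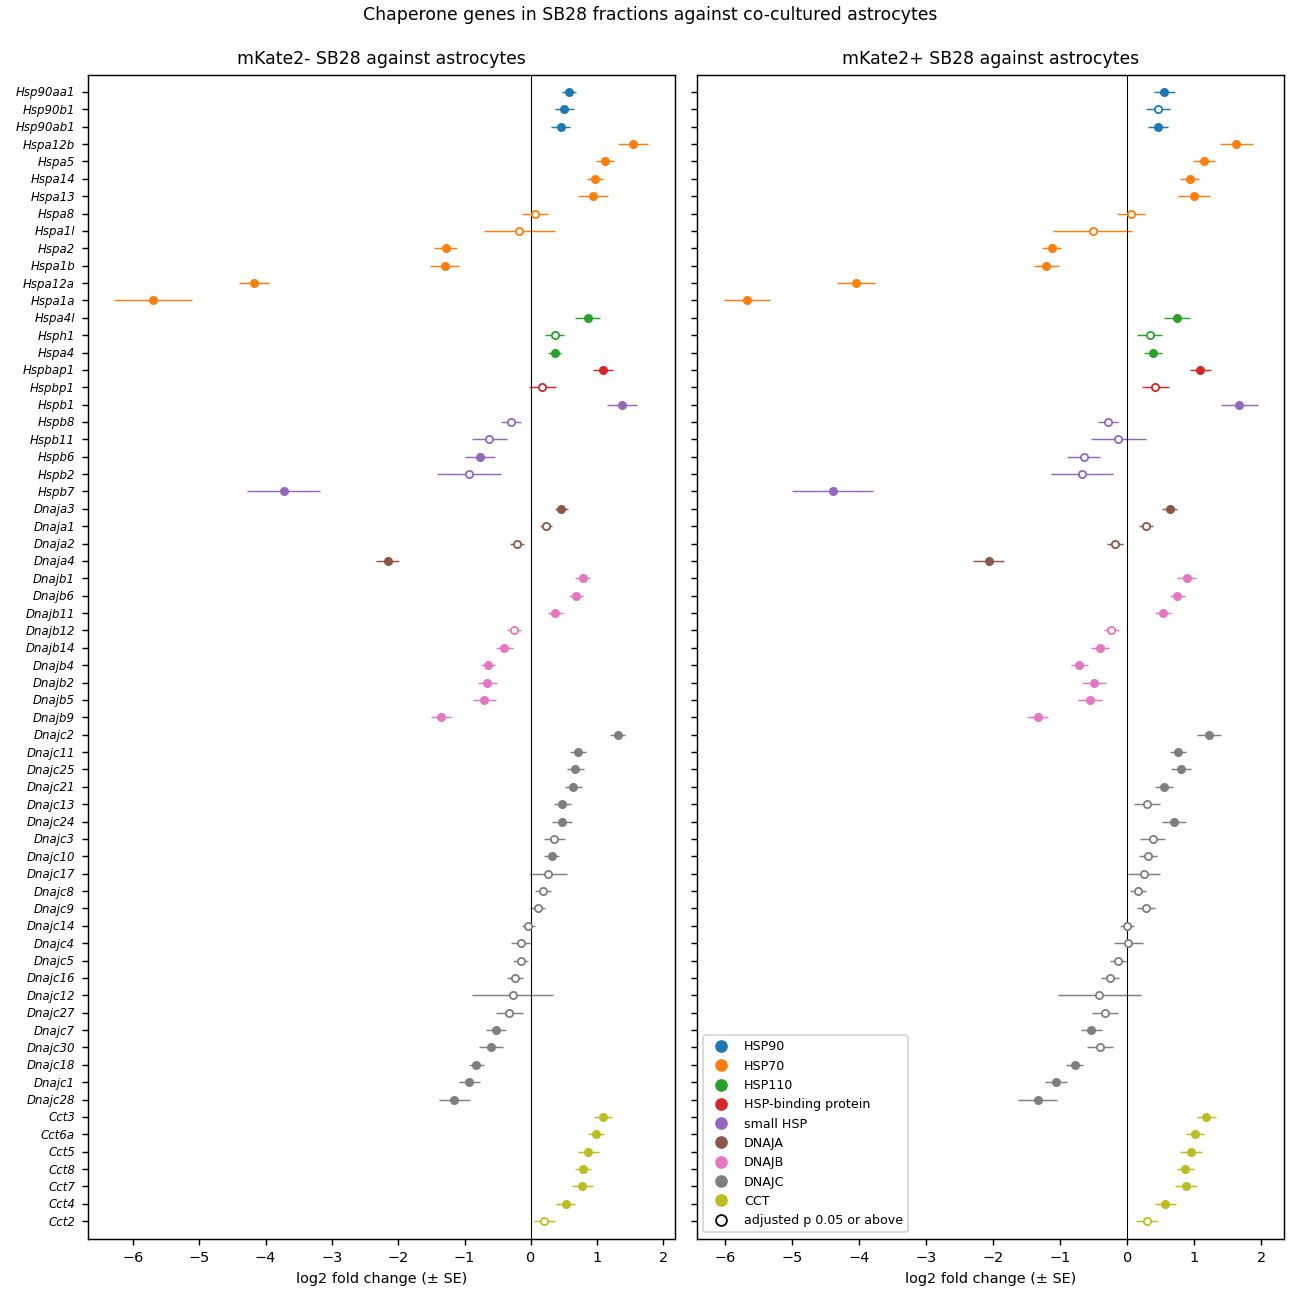
Log2 fold change (points, with SE as bars) of the 66 tested chaperone genes in mKate2- (left) and mKate2+ (right) SB28 cells against the 3 astrocyte libraries, 3 libraries per group, grouped by family; filled points have an adjusted P value below 0.05. Hspa1a, Hspa12a and Hspb7 lie farthest to the left, and Hspa12b and Hspb1 farthest to the right.

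The HSP90 family held the most abundant chaperone mRNA, and its 3 genes were higher in mKate2- cells and 2 of the 3 in mKate2+ cells, where 29.3% and 28.0% of all genes were. The count fell to 1 in mKate2- cells without astrocyte replicate 2 or mKate2- replicate 3, and to 0 in mKate2+ cells without astrocyte replicate 2 or mKate2+ replicate 1 or 3. Hsp90ab1, the constitutive cytosolic isoform, was measured at 3606, 3770.0 and 2954 CPM in the astrocyte libraries, 4633, 4639 and 4695 in the mKate2- libraries and 4614, 4200.1 and 4709 in the mKate2+ libraries. The groups did not overlap, and the gene had log2 fold changes of 0.45 ± 0.15 (SE, adjusted P = 0.0275) in mKate2- and 0.46 ± 0.15 (adjusted P = 0.0305) in mKate2+ cells. Hsp90aa1, the stress-inducible cytosolic isoform, stood at 763, 741 and 753 CPM in the astrocyte libraries, 1118, 1076 and 1148 in the mKate2- libraries and 1173, 817 and 1168 in the mKate2+ libraries. Its lowest SB28 value, in mKate2+ replicate 2, was still above the astrocytes, and it had log2 fold changes of 0.58 ± 0.11 (SE, adjusted P = 0.00195) in mKate2- and 0.55 ± 0.15 (adjusted P = 0.016) in mKate2+ cells. Of the 100-base windows in its exons, 38.0% also occur in other genes, mainly the pseudogene Gm12346, where reads may not be assigned uniquely. Hsp90ab1 lost its call under 8 of 14 alternatives in mKate2- cells (adjusted P from 0.00064 to 0.0900) and under 10 of 14 in mKate2+ cells (0.00133 to 0.108), and Hsp90aa1 lost it in mKate2+ cells under 3 of 14 (0.000734 to 0.0706). The call of Hsp90ab1 in mKate2- cells was lost without astrocyte replicate 2 (0.49) or without mKate2- replicate 1 (0.46), 2 (0.45) or 3 (0.45), and in mKate2+ cells without astrocyte replicate 2 (0.51) or 3 (0.34) or mKate2+ replicate 1 (0.47), 2 (0.48) or 3 (0.45). That of Hsp90aa1 in mKate2+ cells was lost without astrocyte replicate 2 (0.52) or mKate2+ replicate 1 (0.49) or 3 (0.49).

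Levels of different genes can be compared only per length of exon. On the scale of CPM per kb of exon, Hsp90ab1 led with 1148 ± 144 (SD, n = 3) in astrocytes, 1552 ± 11.4 in mKate2- and 1503 ± 90.3 in mKate2+ cells. Hspa8 followed with 693 ± 169.7, 719 ± 19.3 and 689 ± 85.0 CPM per kb. The next places changed between the cell types. In astrocytes Hsp90b1 (205 ± 34.6), Hspa5 (194 ± 24.8) and Hsp90aa1 (191 ± 2.91) lay within one another's spread, whereas in mKate2- cells Hspa5 (417 ± 34.7) stood above Hsp90b1 (288 ± 23.3) and Hsp90aa1 (283 ± 9.17), whose ranges overlapped. In mKate2+ cells the order was Hspa5 (407 ± 70.4), Hsp90aa1 (267.8 ± 52.0) and Hsp90b1 (267.7 ± 51.3), and the lowest library of Hspa5 was above the highest of the other two genes.

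Of 19 listed co-chaperones that load or drive HSP90, 12 passed as higher for mKate2- and 9 for mKate2+ cells, where 29.3% and 28.0% of all genes did. None passed as lower, where 33.8% and 32.1% of all genes did, and the list had median log2 fold changes of 0.40 and 0.49. The count for mKate2- cells fell to 7 without mKate2- replicate 1 or 3. Stip1 (HOP), which hands clients from HSP70 to HSP90, was measured at 299.7, 299 and 240.2 CPM in the astrocyte libraries, 686, 646 and 662 in the mKate2- libraries and 641, 605 and 652 in the mKate2+ libraries. Each SB28 library held more than the highest astrocyte library, with log2 fold changes of 1.26 ± 0.13 (SE, adjusted P = 0.00012) in mKate2- and 1.25 ± 0.14 (adjusted P = 0.00022) in mKate2+ cells. Ppid, a cyclophilin that binds HSP90, had log2 fold changes of 1.03 ± 0.11 (SE, adjusted P = 0.000128) in mKate2- and 1.02 ± 0.14 (adjusted P = 0.000544) in mKate2+ cells. Fnip2, which slows the ATPase of HSP90, had log2 fold changes of 1.19 ± 0.16 (SE, adjusted P = 0.000445) in mKate2- and 1.14 ± 0.18 (adjusted P = 0.00118) in mKate2+ cells. Cdc37, which brings kinases to HSP90, overlapped between the groups, at 314, 247 and 187 CPM in astrocytes, 272, 257 and 274 CPM in mKate2- and 276, 312 and 271 CPM in mKate2+ cells.

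In the HSP70 family 4 of 10 genes were higher and 4 lower in each SB28 fraction, shares near those of all genes (29.3% and 33.8% in mKate2-, 28.0% and 32.1% in mKate2+ cells), and the 4 lower genes include Hspa1a. Hspa8, the cognate HSC70 of unstressed cells, was measured at 3490.3, 3307 and 2144 CPM in the astrocyte libraries, 3106, 3005 and 3169 in the mKate2- libraries and 3097, 2548 and 3241 in the mKate2+ libraries. Astrocyte replicate 3 was the lowest of the 9 and the groups overlapped, so no difference was detected, with log2 fold changes of 0.06 ± 0.20 (SE, adjusted P = 0.8) in mKate2- and 0.06 ± 0.21 (adjusted P = 0.82) in mKate2+ cells. The 95% interval of the log2 difference was -0.40 to 0.53 in mKate2- and -0.43 to 0.55 in mKate2+ cells, and without astrocyte replicate 3 the values were -0.13 and -0.15. Hspa8 shares 28.2% of its 100-base windows with other genes, mainly the pseudogene Gm15459.

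The stress-inducible pair Hspa1a and Hspa1b encodes nearly the same HSP70 protein from neighbouring genes on chromosome 17 of GRCm38 (Hspa1a at chr17:34969190-34972156, minus strand, and Hspa1b at chr17:34956436-34959238, minus strand). Hspa1a was measured at 11.4, 8.68 and 15.8 CPM in the astrocyte libraries, 0.0368, 0.223 and 0.402 in the mKate2- libraries and 0.222, 0.204 and 0.234 in the mKate2+ libraries. These SB28 values rest on 1 to 12 reads per library, against 279 to 554 reads in astrocytes. All SB28 libraries were far below all astrocyte libraries. The log2 fold changes, -5.70 in mKate2- and -5.67 in mKate2+ cells, are given as a description, since the gene passed the filter only through the astrocytes. Without mKate2- replicate 3 the mKate2- value was -6.36. Hspa1b stood at 18.2, 15.6 and 22.8 CPM in the astrocyte libraries, 6.55, 9.42 and 6.80 in the mKate2- libraries and 7.54, 8.09 and 7.64 in the mKate2+ libraries. The groups were again apart, but the drop was much smaller, with log2 fold changes of -1.30 ± 0.22 (SE, adjusted P = 0.00136) in mKate2- and -1.20 ± 0.19 (adjusted P = 0.00131) in mKate2+ cells.

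Of the reads assigned to either gene of the pair, Hspa1a took 38.6% (95% Wilson interval 35.1% to 42.2%), 35.7% (32.5% to 39.1%) and 40.9% (38.3% to 43.5%) in the astrocyte libraries. It took 0.559% (0.0987% to 3.10%), 2.31% (1.18% to 4.50%) and 5.58% (3.22% to 9.50%) in the mKate2- libraries and 2.86% (1.45% to 5.54%), 2.45% (1.25% to 4.77%) and 2.97% (1.51% to 5.76%) in the mKate2+ libraries. The intervals cover counting error only and not the spread between co-cultures. The shares are a description, since Hspa1a passed the filter only through the astrocytes. The 2 genes share 48.6% (Hspa1a) and 49.9% (Hspa1b) of their 100-base windows with each other, where reads may not be assigned uniquely, and where in the 2 genes the counted reads fall was not tested. An antisense gene, Gm20481, overlaps 564 bases of Hspa1a exon, and whether strand was used in counting is not given in the sources used here.

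The promoters of the pair are shown because they are almost the same sequence, while the fold changes of the 2 genes differed. The 250 bases before the start site (RefSeq, GRCm38.p6, minus strand, chr17:34972157-34972406 for Hspa1a and chr17:34959239-34959488 for Hspa1b) carry the same base at 247 positions. Counted from 1 at the 5′ end of the stretch, with the base of Hspa1a first, the differences are C44T, T47C and T249G. Capitals mark the match to GAANNTTC, a pair of facing units of the heat shock element to which HSF1 binds, at the same place in both.
Hspa1a: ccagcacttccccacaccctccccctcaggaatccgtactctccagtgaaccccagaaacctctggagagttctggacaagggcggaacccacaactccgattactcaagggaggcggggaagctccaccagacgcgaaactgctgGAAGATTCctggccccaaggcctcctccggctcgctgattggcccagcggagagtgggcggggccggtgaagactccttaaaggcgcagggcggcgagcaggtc
Hspa1b: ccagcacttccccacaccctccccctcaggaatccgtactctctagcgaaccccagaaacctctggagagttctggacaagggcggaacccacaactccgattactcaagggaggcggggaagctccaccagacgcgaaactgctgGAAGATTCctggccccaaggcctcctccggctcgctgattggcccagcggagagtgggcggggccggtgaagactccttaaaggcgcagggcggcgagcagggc
The match is a description of the letters and not a measured binding site.

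Hspa2, an HSP70 first known from testis, was also lower in SB28 cells. It was measured at 41.8, 36.8 and 38.9 CPM in the astrocyte libraries, 13.1, 19.0 and 15.5 in the mKate2- libraries and 16.6, 18.2 and 16.2 in the mKate2+ libraries. The astrocyte values were all above the SB28 values, with log2 fold changes of -1.29 ± 0.17 (SE, adjusted P = 0.000378) in mKate2- and -1.12 ± 0.14 (adjusted P = 0.000427) in mKate2+ cells. The distant relatives Hspa12a and Hspa12b, which have an atypical ATPase domain, went in opposite directions. Hspa12a, which is abundant in brain, stood at 29.0, 38.7 and 27.2 CPM in the astrocyte libraries, 1.91, 1.92 and 1.34 in the mKate2- libraries and 2.52, 1.502 and 1.43 in the mKate2+ libraries. The gene was close to silent in SB28 cells, with log2 fold changes of -4.17 ± 0.23 (SE, adjusted P = 9.51e-06) in mKate2- and -4.04 ± 0.28 (adjusted P = 3.05e-05) in mKate2+ cells. Hspa12b, known from endothelial cells, stood at 14.8, 10.6 and 8.08 CPM in the astrocyte libraries, 30.7, 33.1 and 33.0 in the mKate2- libraries and 32.1, 35.3 and 30.6 in the mKate2+ libraries. Every SB28 library held at least 30.6 CPM and no astrocyte library more than 14.8 CPM, with log2 fold changes of 1.54 ± 0.23 (SE, adjusted P = 0.00074) in mKate2- and 1.63 ± 0.24 (adjusted P = 0.000927) in mKate2+ cells. The 3 endothelial markers summed to at most 6.09 CPM in any library, with Cldn5 at or near 0. Hspa14, which sits on the ribosome and helps new chains to fold, had log2 fold changes of 0.96 ± 0.12 (SE, adjusted P = 0.00031) in mKate2- and 0.93 ± 0.14 (adjusted P = 0.000952) in mKate2+ cells.

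**Figure D2:**
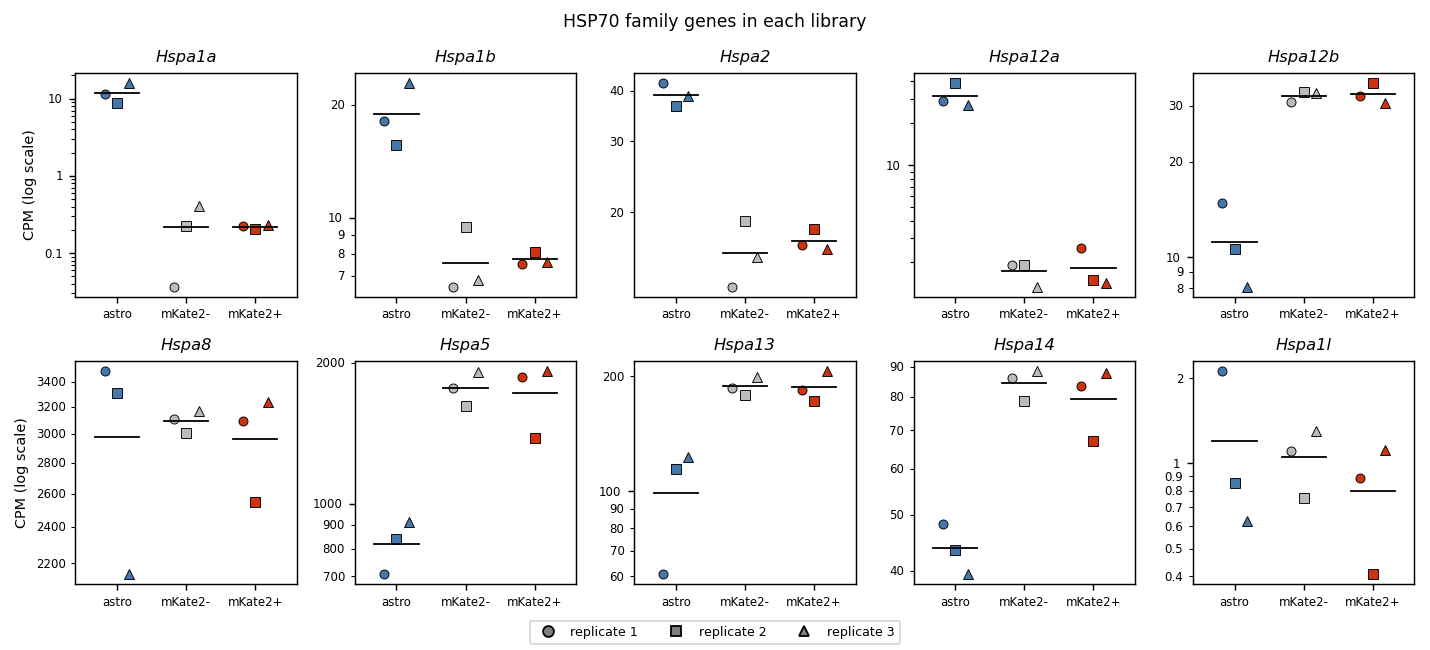
CPM of the 10 HSP70 family genes in each of the 9 libraries (log axis, a separate scale in each panel; symbols mark replicates 1 to 3 and lines the mean of 3). Hspa1a, Hspa1b, Hspa2 and Hspa12a lie lower in both SB28 fractions, Hspa12b, Hspa5, Hspa13 and Hspa14 lie higher, and Hspa8 and Hspa1l overlap between the groups.

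Of the 3 exchange factors of the HSP110 family, 2 were higher in each fraction, where 29.3% and 28.0% of all genes were. The count fell to 1 in mKate2- cells without mKate2- replicate 1 or 3, and in mKate2+ cells whichever library other than mKate2+ replicate 2 was left out. Hspa4l was measured at 145, 236 and 225 CPM in the astrocyte libraries, 357, 408 and 317 in the mKate2- libraries and 362, 297 and 299 in the mKate2+ libraries. The groups did not overlap, with log2 fold changes of 0.86 ± 0.19 (SE, adjusted P = 0.00481) in mKate2- and 0.74 ± 0.19 (adjusted P = 0.0116) in mKate2+ cells. Hspa4 had log2 fold changes of 0.36 ± 0.10 (SE, adjusted P = 0.0179) in mKate2- and 0.38 ± 0.14 (adjusted P = 0.0442) in mKate2+ cells, and lost its call in mKate2+ cells under 10 of 14 alternatives (adjusted P from 0.000711 to 0.160). These included leaving out astrocyte replicate 1 (0.35), 2 (0.42) or 3 (0.33) or mKate2+ replicate 1 (0.35) or 3 (0.32), and in mKate2- cells the call was lost without mKate2- replicate 1 (0.37) or 3 (0.32). Hsph1, the most stress-responsive of the 3, stood at 195, 157 and 148 CPM in the astrocyte libraries, 211, 189 and 235 in the mKate2- libraries and 234, 147 and 221 in the mKate2+ libraries. Astrocyte replicate 1 was above mKate2- replicate 2 and mKate2+ replicate 2, so the groups overlapped, with log2 fold changes of 0.36 ± 0.15 (SE, adjusted P = 0.0673) in mKate2- and 0.33 ± 0.19 (adjusted P = 0.164) in mKate2+ cells. Without mKate2+ replicate 2 its log2 fold change in mKate2+ cells was 0.49 (adjusted P = 0.0441), and without astrocyte replicate 1 that in mKate2- cells was 0.50 (adjusted P = 0.00698).

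Among the other partners of HSP70, 5 of 14 listed co-chaperones were higher and 3 lower in each fraction, or 35.7% and 21.4%, against 29.3% and 33.8% of all genes for mKate2- and 28.0% and 32.1% for mKate2+ cells, with median log2 fold changes of -0.00041 and 0.10. The count of higher genes in mKate2+ cells fell to 3 without astrocyte replicate 3 or mKate2+ replicate 1 or 3. Bag2, an exchange factor that blocks the ubiquitin ligase CHIP, was measured at 42.6, 45.0 and 33.0 CPM in the astrocyte libraries, 87.8, 90.0 and 85.0 in the mKate2- libraries and 81.5, 89.3 and 85.3 in the mKate2+ libraries. All SB28 libraries held more than the astrocytes, with log2 fold changes of 1.14 ± 0.14 (SE, adjusted P = 0.000275) in mKate2- and 1.16 ± 0.15 (adjusted P = 0.000515) in mKate2+ cells. Sil1, the exchange factor of BiP in the endoplasmic reticulum, went the other way, at 66.3, 49.7 and 58.4 CPM in the astrocyte libraries, 25.9, 26.4 and 23.6 in the mKate2- libraries and 26.1, 28.0 and 22.2 in the mKate2+ libraries. It had log2 fold changes of -1.19 ± 0.15 (SE, adjusted P = 0.000298) in mKate2- and -1.12 ± 0.17 (adjusted P = 0.00113) in mKate2+ cells. Bag3, the stress-inducible partner of HSP70 in autophagy, was among the lower genes, with log2 fold changes of -0.53 and -0.48 (adjusted P = 0.00248 and 0.00711). Of the binding proteins in the gene set, Hspbap1, which binds HSP27, had log2 fold changes of 1.09 ± 0.15 (SE, adjusted P = 0.000532) in mKate2- and 1.09 ± 0.16 (adjusted P = 0.000921) in mKate2+ cells, and Hspbp1, an inhibitor and exchange factor of HSP70, overlapped between the groups at 0.18 and 0.42. Its values passed the threshold without astrocyte replicate 1, at 0.44 (adjusted P = 0.00627) and 0.68 (adjusted P = 0.00304), and were 0.06 and 0.28 without astrocyte replicate 3.

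Of the 8 small heat shock protein genes, 6 could be tested, and 1 was higher and 2 lower in mKate2- cells and 1 higher and 1 lower in mKate2+ cells, with Hspb7 among the lower in both, against 29.3% and 33.8% of all genes for mKate2- and 28.0% and 32.1% for mKate2+ cells. The number of lower ones rose to 4 in mKate2- and 2 in mKate2+ cells without astrocyte replicate 3, and fell to 1 in mKate2- cells whichever mKate2- library was left out. Hspb1 (HSP27), the best known stress-inducible member, was measured at 15.3, 13.5 and 24.6 CPM in the astrocyte libraries, 46.8, 50.5 and 39.7 in the mKate2- libraries and 54.0, 64.5 and 41.6 in the mKate2+ libraries. The highest astrocyte value, in replicate 3, was below the lowest SB28 value, with log2 fold changes of 1.38 ± 0.23 (SE, adjusted P = 0.00134) in mKate2- and 1.67 ± 0.28 (adjusted P = 0.00152) in mKate2+ cells. It shares 44.0% of its windows with other genes, mainly the pseudogene Hsp25-ps1. Hspb7, a heart and muscle member, stood at 8.34, 10.6 and 2.59 CPM in the astrocyte libraries, 0.478, 0.585 and 0.536 in the mKate2- libraries and 0.361, 0.204 and 0.410 in the mKate2+ libraries. SB28 cells held 8 to 21 reads per library, against 91 to 347 in astrocytes. The log2 fold changes, -3.72 and -4.39, are again a description, since only the astrocytes carried the gene past the filter.

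Hspb6 (HSP20) was lower by -0.76 ± 0.23 on the log2 scale in mKate2- cells (adjusted P = 0.0192), and in mKate2+ cells its value was -0.65 ± 0.25 (adjusted P = 0.052). It lost its call in mKate2- cells without mKate2- replicate 1 (-0.75), 2 (-0.77) or 3 (-0.74), and passed in mKate2+ cells without astrocyte replicate 3 (-0.85, adjusted P = 0.0135). Hspb8, which works with Bag3, stood at 79.9, 75.7 and 108 CPM in the astrocyte libraries, 77.8, 62.8 and 71.5 in the mKate2- libraries and 73.3, 64.2 and 67.9 in the mKate2+ libraries. Astrocyte replicate 3 was the highest, and no difference was detected, with -0.30 and -0.29 (adjusted P = 0.124 and 0.14), values that were -0.13 and -0.14 without that library and turned to 0.20 and 0.15 with the length trend removed. Cryab, αB-crystallin, the small heat shock protein best known from astrocytes, was listed apart because its name falls outside the rule. It was measured at 157, 134 and 113 CPM in the astrocyte libraries, 118, 135 and 90.9 in the mKate2- libraries and 126, 195 and 96.3 in the mKate2+ libraries. The groups overlapped, with -0.22 and 0.13 (adjusted P = 0.324 and 0.7). Hspb2, which shares 252 bases of exon with Cryab on the opposite strand, stood at 0.570 to 2.75 CPM in the 9 libraries and overlapped, with a value in mKate2- cells that passed without astrocyte replicate 3 (-1.24, adjusted P = 0.0315).

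The J-domain proteins choose the clients of HSP70. Of the 4 DNAJA genes 1 was higher and 1 lower in each fraction, near the shares of all genes (29.3% and 33.8% for mKate2-, 28.0% and 32.1% for mKate2+ cells). Dnaja4, a target of sterol signals, was measured at 17.5, 21.1 and 22.5 CPM in the astrocyte libraries, 4.78, 4.65 and 4.06 in the mKate2- libraries and 5.96, 3.39 and 4.56 in the mKate2+ libraries. The groups were far apart, with log2 fold changes of -2.16 ± 0.17 (SE, adjusted P = 3.61e-05) in mKate2- and -2.07 ± 0.23 (adjusted P = 0.000238) in mKate2+ cells. Wdr61 on the opposite strand overlaps 1581 bases of its exons. Dnaja3, a mitochondrial J-domain protein, was higher by 0.46 ± 0.10 and 0.63 ± 0.11. Dnaja1, the main partner of HSC70, stood at 205, 196 and 208 CPM in the astrocyte libraries, 241, 226 and 241 in the mKate2- libraries and 243, 222 and 235 in the mKate2+ libraries. Its SB28 values were a little above the astrocytes without passing the threshold, at 0.23 ± 0.09 (adjusted P = 0.0606) and 0.28 ± 0.10 (adjusted P = 0.0516). Without astrocyte replicate 1 its value in mKate2- cells was 0.25 (adjusted P = 0.0407).

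In the DNAJB class 3 of 9 tested genes were higher and 5 lower in each fraction, against 29.3% and 33.8% of all genes for mKate2- and 28.0% and 32.1% for mKate2+ cells. Only 3 were lower in mKate2+ cells without astrocyte replicate 1 or 2 and only 2 without mKate2+ replicate 1 or 3. Dnajb1 (HSP40), the stress-inducible partner of HSP70, was measured at 91.4, 97.3 and 79.1 CPM in the astrocyte libraries, 158, 147 and 151 in the mKate2- libraries and 146, 173 and 151 in the mKate2+ libraries. Every SB28 library was above every astrocyte library, with log2 fold changes of 0.78 ± 0.11 (SE, adjusted P = 0.000602) in mKate2- and 0.89 ± 0.14 (adjusted P = 0.00136) in mKate2+ cells. Dnajb6, which keeps polyglutamine and amyloid chains apart, was higher by 0.68 and 0.75. The lower genes were Dnajb9, described with the endoplasmic reticulum, and Dnajb2, Dnajb4, Dnajb5 and Dnajb14, at -0.66, -0.65, -0.70 and -0.40 in mKate2- cells and -0.50, -0.71, -0.56 and -0.41 in mKate2+ cells. Dnajb2 is known as a neuronal J-domain protein. Dnajb12, a J-domain protein of the membrane of the endoplasmic reticulum, did not pass the threshold (-0.25 and -0.24), except in mKate2- cells without astrocyte replicate 1 (-0.28). Of the lower genes, Dnajb14 lost its call in mKate2- cells without mKate2- replicate 1 (-0.39), 2 (-0.36) or 3 (-0.42) and in mKate2+ cells without astrocyte replicate 3 (-0.32) or mKate2+ replicate 1 (-0.39), 2 (-0.40) or 3 (-0.43). In mKate2+ cells Dnajb2 lost it without astrocyte replicate 1 (-0.38) or 2 (-0.55) or mKate2+ replicate 1 (-0.45) or 3 (-0.40), and Dnajb5 without the same libraries (-0.45, -0.55, -0.54 and -0.48).

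In the DNAJC class, whose members mostly act at 1 place or on 1 client, 7 of 22 tested genes passed as higher and 5 as lower in mKate2- cells and 5 higher and 4 lower in mKate2+ cells. Of all genes, 29.3% were higher and 33.8% lower for mKate2- and 28.0% and 32.1% for mKate2+ cells. Without astrocyte replicate 2 only 4 passed as higher for mKate2- cells, and without mKate2- replicate 1 or 2 only 3 as lower. Dnajc2 (zuotin), which works with Hspa14 on the ribosome, was measured at 33.2, 31.0 and 30.9 CPM in the astrocyte libraries, 76.7, 71.8 and 84.8 in the mKate2- libraries and 77.4, 50.6 and 83.6 in the mKate2+ libraries. Even the lowest SB28 value, in mKate2+ replicate 2, exceeded the astrocytes, with log2 fold changes of 1.31 ± 0.11 (SE, adjusted P = 5.35e-05) in mKate2- and 1.22 ± 0.18 (adjusted P = 0.000871) in mKate2+ cells. Hspa14 and Dnajc2 were thus both higher in both fractions. Dnajc21, which takes part in the maturation of the large ribosomal subunit, was higher by 0.64 and 0.55, and Dnajc11, of the mitochondrial membranes, by 0.71 and 0.76.

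Dnajc28, a mitochondrial J-domain protein that has been little studied, was the lowest of the class. It was measured at 4.74, 5.35 and 5.32 CPM in the astrocyte libraries, 2.501, 2.23 and 2.11 in the mKate2- libraries and 1.44, 2.24 and 2.08 in the mKate2+ libraries. The groups did not overlap, with log2 fold changes of -1.16 ± 0.23 (SE, adjusted P = 0.00328) in mKate2- and -1.34 ± 0.29 (adjusted P = 0.00524) in mKate2+ cells. Dnajc24, which serves the making of diphthamide, was higher by 0.47 and 0.70. Dnajc13, which acts on endosomes, was higher in mKate2- cells (0.47, adjusted P = 0.0136), and its value in mKate2+ cells was 0.29 (adjusted P = 0.217). Dnajc30, a mitochondrial protein whose gene overlaps Bud23 by 436 bases on the opposite strand, was lower in mKate2- cells (-0.60, adjusted P = 0.0204), with -0.41 in mKate2+ cells (adjusted P = 0.1). Dnajc18 and Dnajc7 were lower by smaller amounts, at -0.82 and -0.52 in mKate2- and -0.79 and -0.53 in mKate2+ cells. Dnajc5, the cysteine string protein of synaptic vesicles, stood at 128, 152 and 169 CPM in astrocytes, 123, 142 and 134 CPM in mKate2- and 132, 124 and 131 CPM in mKate2+ cells, and the groups overlapped.

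Several of these calls were lost with 1 library left out, while the fold changes kept their sign and stayed close to those above. Such a fit also rests on fewer libraries. In mKate2- cells Dnajc13 lost its call without astrocyte replicate 2 (0.43), Dnajc24 without astrocyte replicate 2 (0.43) or mKate2- replicate 1 (0.40) or 3 (0.49), Dnajc30 without mKate2- replicate 1 (-0.55) or 2 (-0.60), and Dnajc7 without mKate2- replicate 1 (-0.45) or 2 (-0.51). In mKate2+ cells Dnajc7 lost it without mKate2+ replicate 2 (-0.46) or 3 (-0.56). Of all 45 chaperone calls in mKate2- cells, 33 held with each of the libraries left out in turn, and of the 40 in mKate2+ cells 32 held. The shares of all called genes that held are not given, so these counts describe the processing only. Hspa1a and Hspb7 are among those that held in both, but they passed the filter only through the astrocytes and had to differ.

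Of the 9 CCT genes 7 could be tested, and 6 were higher and 0 lower in each fraction, where 29.3% and 28.0% of all genes were higher and 33.8% and 32.1% lower, with medians of 0.79 and 0.87. Tcp1, the subunit whose symbol falls outside the rule, was higher too, which made 7 of 8 subunits. Cct3 was measured at 300.4, 289 and 234 CPM in the astrocyte libraries, 599, 529 and 613 in the mKate2- libraries and 577, 554 and 644 in the mKate2+ libraries. No SB28 library came near the astrocytes, with log2 fold changes of 1.09 ± 0.14 (SE, adjusted P = 0.000328) in mKate2- and 1.18 ± 0.14 (adjusted P = 0.000362) in mKate2+ cells. Cct6a stood at 246, 275 and 231 CPM in the astrocyte libraries, 504, 445 and 525 in the mKate2- libraries and 485, 413 and 536 in the mKate2+ libraries. The lowest SB28 library held 413 CPM and the highest astrocyte library 275 CPM, with log2 fold changes of 0.99 ± 0.12 (SE, adjusted P = 0.000247) in mKate2- and 1.00 ± 0.13 (adjusted P = 0.00053) in mKate2+ cells.

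Cct5, Cct7 and Cct8 had log2 fold changes of 0.87 ± 0.16, 0.78 ± 0.16 and 0.79 ± 0.12 in mKate2- cells and 0.95 ± 0.17, 0.87 ± 0.16 and 0.87 ± 0.13 in mKate2+ cells, and Cct4 had 0.52 ± 0.15 and 0.57 ± 0.15. Cct4 lost its call in mKate2- cells without mKate2- replicate 1 (0.49) or 3 (0.50) and in mKate2+ cells without mKate2+ replicate 3 (0.52). Tcp1 stood at 480.4, 489 and 386 CPM in the astrocyte libraries, 695, 680.3 and 729 in the mKate2- libraries and 724, 638 and 749 in the mKate2+ libraries. It had log2 fold changes of 0.65 ± 0.13 (SE, adjusted P = 0.00334) in mKate2- and 0.71 ± 0.14 (adjusted P = 0.0037) in mKate2+ cells. Cct2 was the exception, at 505, 442 and 349 CPM in the astrocyte libraries, 497, 485 and 499 in the mKate2- libraries and 517, 489 and 509.6 in the mKate2+ libraries. Astrocyte replicate 1 was as high as the SB28 libraries, and the difference did not pass the threshold, with log2 fold changes of 0.20 ± 0.16 (SE, adjusted P = 0.281) in mKate2- and 0.30 ± 0.16 (adjusted P = 0.145) in mKate2+ cells. Without that library the values were 0.34 (adjusted P = 0.0467) and 0.43 (adjusted P = 0.0433), and without astrocyte replicate 3 they were 0.06 (adjusted P = 0.619) and 0.14 (adjusted P = 0.395). The subunits assemble in equal numbers, yet per kb of exon Cct2 was the most abundant of the Cct genes in astrocytes (169 ± 30.7 CPM per kb) and Cct5 in mKate2- cells (223 ± 15.3, against 193 ± 2.87 for Cct2). In the 3 astrocyte libraries, replicate 3 was the lowest for each of the 8 subunits.

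**Figure D3:**
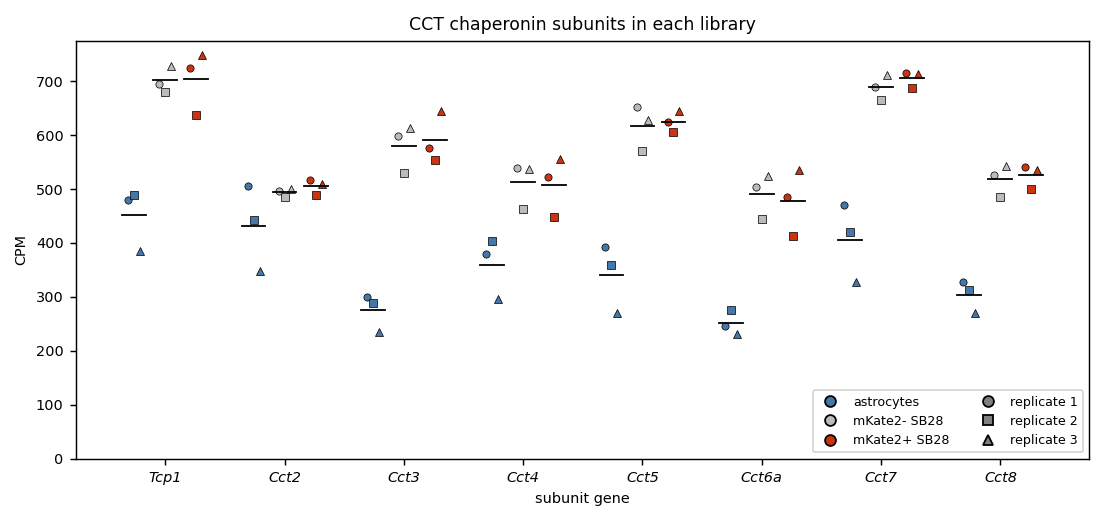
CPM of Tcp1 and the 7 tested Cct genes in each library (linear axis from 0; symbols mark replicates 1 to 3 and lines the mean of 3). For each subunit but Cct2, all 6 SB28 libraries lie above the 3 astrocyte libraries.

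Prefoldin hands unfolded actin and tubulin to CCT. Of 10 listed genes of prefoldin and its relatives, a list that includes Tcp1, 3 were higher and 1 lower in mKate2- cells, where 29.3% and 33.8% of all genes were, and 4 higher and 1 lower in mKate2+ cells, where 28.0% and 32.1% were, with medians of -0.0044 and 0.42. Vbp1, a prefoldin subunit, had log2 fold changes of 0.90 and 0.92, and Uri1, a prefoldin-like protein, of -0.53 and -0.56 (adjusted P = 0.00467 and 0.0081). Pfdn1, another prefoldin subunit, stood at 66.9, 56.9 and 62.7 CPM in mKate2- and 67.2, 124 and 63.5 CPM in mKate2+ cells, with mKate2+ replicate 2 far above the rest. Pfdn4 lost its call in mKate2+ cells without mKate2+ replicate 2 (0.47) or 3 (0.77) or astrocyte replicate 2 (0.78) or 3 (0.51). Pfdn6 lost its call in mKate2- cells without astrocyte replicate 2 (0.53) or mKate2- replicate 1 (0.56). The part of mKate2+ replicate 2 in the higher median of mKate2+ cells was not tested.

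The chaperones of the endoplasmic reticulum differed by gene. The list used here leaves out the membrane proteins Dnajb12 and Dnajb14, given above. Of the 10 listed, 6 were higher and 2 lower in mKate2- cells, where 29.3% and 33.8% of all genes were, and 4 higher and 2 lower in mKate2+ cells, where 28.0% and 32.1% were. The number higher in mKate2- cells fell to 3 without astrocyte replicate 2 or mKate2- replicate 3. Hspa5 (BiP), the HSP70 of this compartment and the main sensor of its unfolded proteins, was measured at 707, 839 and 915 CPM in the astrocyte libraries, 1765, 1619 and 1912 in the mKate2- libraries and 1865, 1379.9 and 1922 in the mKate2+ libraries. The lowest SB28 library held 1380 CPM and the highest astrocyte library 915 CPM, with log2 fold changes of 1.12 ± 0.13 (SE, adjusted P = 0.000245) in mKate2- and 1.14 ± 0.16 (adjusted P = 0.00075) in mKate2+ cells. Hsp90b1 (GRP94) stood at 738, 754 and 987 CPM in the astrocyte libraries, 1072, 1147 and 1259 in the mKate2- libraries and 1208, 841 and 1189.7 in the mKate2+ libraries. In mKate2+ replicate 2 it fell within the range of the astrocytes, with log2 fold changes of 0.51 ± 0.14 (SE, adjusted P = 0.0166) in mKate2- and 0.46 ± 0.18 (adjusted P = 0.0573) in mKate2+ cells. Without that library its mKate2+ value was 0.59 (adjusted P = 0.0237), and without astrocyte replicate 3 it was 0.58 (adjusted P = 0.0232). Its call in mKate2- cells was lost without astrocyte replicate 2 (0.42) or mKate2- replicate 3 (0.45).

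Hspa13, a small HSP70 of microsomes, was higher at 60.8, 114 and 123 CPM in the astrocyte libraries, 186, 179 and 199 in the mKate2- libraries and 184, 172 and 207 in the mKate2+ libraries. Astrocyte replicate 1 was the lowest, and the gene had log2 fold changes of 0.94 ± 0.23 (SE, adjusted P = 0.00808) in mKate2- and 1.00 ± 0.24 (adjusted P = 0.00904) in mKate2+ cells. Dnajb11 (ERdj3), a secreted co-chaperone of BiP, was higher by 0.37 ± 0.11 and 0.53 ± 0.12, and Dnajc25 by 0.67 ± 0.13 and 0.80 ± 0.14. The call of Dnajb11 in mKate2- cells was lost without astrocyte replicate 2 (0.27) or mKate2- replicate 1 (0.40) or 3 (0.31). Dnajc10 (ERdj5), a reductase that opens disulfide bonds, had 0.32 ± 0.11 (adjusted P = 0.0411) and 0.30 ± 0.13 (adjusted P = 0.0841), and its call in mKate2- cells was lost without astrocyte replicate 1 (0.24) or 2 (0.29) or mKate2- replicate 1 (0.34), 2 (0.28) or 3 (0.35). Dnajc3 (p58IPK), which restrains the kinase PERK, overlapped between the groups at 0.35 and 0.38, but passed in both fractions without astrocyte replicate 3, at 0.52 (adjusted P = 0.00581) and 0.53 (adjusted P = 0.0282). Dnajc16 had -0.24 and -0.26 without passing the threshold, except in mKate2- cells without astrocyte replicate 1 (-0.32).

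Dnajb9 (ERdj4), which brings BiP to the stress sensor IRE1, was lower, while BiP was higher. It was measured at 37.9, 44.5 and 53.8 CPM in the astrocyte libraries, 16.2, 17.7 and 18.9 in the mKate2- libraries and 17.6, 16.8 and 16.9 in the mKate2+ libraries. The groups were clearly apart, with log2 fold changes of -1.35 ± 0.15 (SE, adjusted P = 0.000185) in mKate2- and -1.33 ± 0.16 (adjusted P = 0.000301) in mKate2+ cells. Dnajc1 (ERdj1), which binds BiP at the ribosome, stood at 55.7, 52.1 and 74.5 CPM in the astrocyte libraries, 28.7, 31.8 and 34.1 in the mKate2- libraries and 29.3, 23.9 and 29.9 in the mKate2+ libraries. It was likewise lower in every SB28 library, with log2 fold changes of -0.93 ± 0.16 (SE, adjusted P = 0.00136) in mKate2- and -1.06 ± 0.17 (adjusted P = 0.00122) in mKate2+ cells, and Mllt10 on the opposite strand overlaps 749 bases of its exons. Sec63 (ERdj2), the J-domain protein of the translocon, is outside the symbol rule and was also lower, at -0.88 and -0.88 (adjusted P = 0.000272 and 0.000754).

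**Figure D4:**
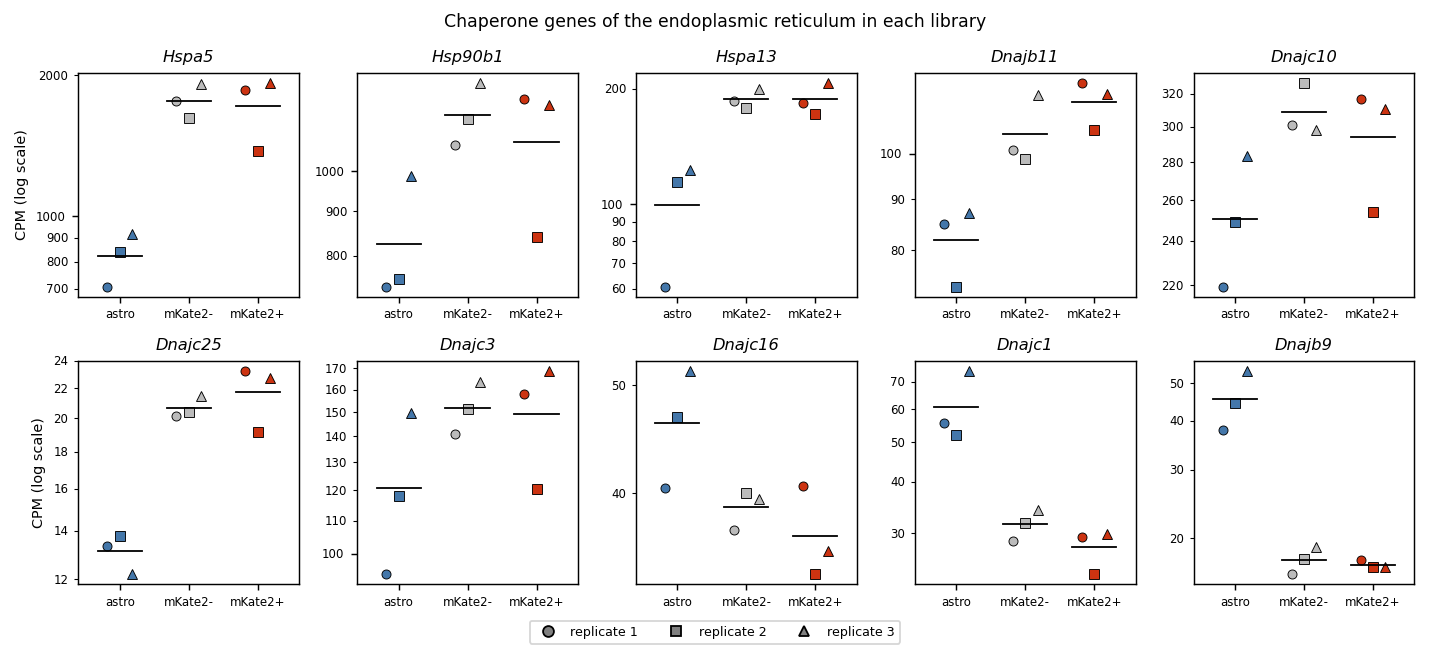
CPM of the 10 chaperone genes listed for the endoplasmic reticulum in each library (log axis, a separate scale in each panel; symbols mark replicates 1 to 3 and lines the mean of 3). Hspa5, Hspa13, Dnajb11 and Dnajc25 lie higher in both SB28 fractions and Dnajc1 and Dnajb9 lower, and mKate2+ replicate 2 is the lowest SB28 library for Hspa5, Hsp90b1, Hspa13, Dnajc10, Dnajc25, Dnajc3, Dnajc16 and Dnajc1.

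Other folding and stress genes of this compartment had 12 of 14 higher and 1 lower in each fraction, where 29.3% and 28.0% of all genes were higher and 33.8% and 32.1% lower, with medians of 0.69 and 0.82. Sdf2l1, a partner of BiP and Dnajb11, was measured at 24.2, 26.6 and 23.3 CPM in the astrocyte libraries, 66.0, 50.7 and 67.7 in the mKate2- libraries and 72.7, 83.9 and 68.6 in the mKate2+ libraries. Each SB28 library held more than the astrocytes, with log2 fold changes of 1.33 ± 0.14 (SE, adjusted P = 0.000158) in mKate2- and 1.68 ± 0.15 (adjusted P = 8.05e-05) in mKate2+ cells. Pdia6, a disulfide isomerase, had log2 fold changes of 1.14 and 1.26, and Atf6, a sensor of the unfolded protein response, of 1.29 and 1.18. Ddit3 (CHOP), the factor linked to cell death after long stress, was the lower gene, at 23.96, 19.7 and 20.1 CPM in the astrocyte libraries, 9.38, 8.58 and 7.004 in the mKate2- libraries and 8.68, 9.26 and 6.73 in the mKate2+ libraries. It had log2 fold changes of -1.34 ± 0.18 (SE, adjusted P = 0.00042) in mKate2- and -1.29 ± 0.20 (adjusted P = 0.00109) in mKate2+ cells.

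The genes of this compartment are known to share a promoter element, and the stretches that hold it are shown here. The ER stress element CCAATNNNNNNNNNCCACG was searched on both strands of the RefSeq windows of GRCm38.p6 from 250 bases before to 50 bases after the start, which were found for 64 of the 78 genes. It was present in 3 of these 64 genes, or 4.69%, and in 0.137% of all 27025 genes with a window. The 3 were Hspa5 (chr2:34772015-34772053, plus strand), Hsp90b1 (chr10:86705523-86705666, minus strand) and Dnajc3 (chr14:118937817-118937855, plus strand), and capitals mark the element, of which Hsp90b1 holds 2, in opposite orientations.
Hspa5: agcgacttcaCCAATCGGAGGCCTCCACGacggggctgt
Hsp90b1: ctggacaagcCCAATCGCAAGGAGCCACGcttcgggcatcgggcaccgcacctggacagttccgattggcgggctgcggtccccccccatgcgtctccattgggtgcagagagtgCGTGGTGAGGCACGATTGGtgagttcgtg
Dnajc3: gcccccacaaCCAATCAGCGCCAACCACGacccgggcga
These letters were not found in the windows of Dnajb9 or Dnajb11, which says only that they are not in this stretch. Hspa5 was higher in both fractions, Hsp90b1 passed the threshold in mKate2- cells, and Dnajc3 passed it in neither. The calls of Hsp90b1 and Dnajc3 changed in both directions with single libraries left out. Hsp90b1 lost its call in mKate2- cells without astrocyte replicate 2 (0.42) or mKate2- replicate 3 (0.45). In mKate2+ cells it passed without astrocyte replicate 3 or mKate2+ replicate 2. Dnajc3 passed, in both fractions, only without astrocyte replicate 3.

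The main factor that drives the heat shock genes was higher in SB28 cells. Hsf1 was measured at 68.2, 58.9 and 56.9 CPM in the astrocyte libraries, 99.5, 91.2 and 105 in the mKate2- libraries and 94.2, 80.9 and 95.9 in the mKate2+ libraries. All SB28 libraries were above the astrocytes, with log2 fold changes of 0.69 ± 0.12 (SE, adjusted P = 0.0015) in mKate2- and 0.63 ± 0.13 (adjusted P = 0.0037) in mKate2+ cells. Hsf4, a factor best known from the lens, stood at 2.54, 2.81 and 2.85 CPM in the astrocyte libraries, 8.13, 6.58 and 5.56 in the mKate2- libraries and 8.15, 7.71 and 6.26 in the mKate2+ libraries. Low as it was, it did not overlap between the groups, with log2 fold changes of 1.32 ± 0.24 (SE, adjusted P = 0.00198) in mKate2- and 1.51 ± 0.24 (adjusted P = 0.00114) in mKate2+ cells. Hsf2 overlapped at 0.15 and 0.07. Hsbp1, a small protein that binds HSF1, was lower in mKate2- cells at -0.76 ± 0.11 (adjusted P = 0.000618) and overlapped in mKate2+ cells at -0.29 ± 0.29 (adjusted P = 0.42), where mKate2+ replicate 2 held 141 CPM and replicates 1 and 3 72.5 and 70.3 CPM, and without mKate2+ replicate 2 it passed as lower there too (-0.74, adjusted P = 0.00479). In all, 2 of the 4 listed genes passed as higher and 1 as lower in mKate2- cells, where 29.3% and 33.8% of all genes did, and 2 higher and 0 lower in mKate2+ cells, where 28.0% and 32.1% did.

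The heat shock element was searched for in the same windows. Some chaperone genes had no window and were not searched, among them Hsp90aa1, Hsp90ab1 and Hspa8. The reverse order of the 2 units, TTCNNGAA, was not searched alone. GAANNTTC, which reads the same on both strands, was present in the windows of 14 of the 64 chaperone genes, or 21.9%, and in 9.04% of all 27025 genes. Of these 14 genes 11 could be tested, and 2 were higher and 4 lower in the mKate2- fraction, where 29.3% and 33.8% of all genes were, and 2 higher and 3 lower in the mKate2+ fraction, where 28.0% and 32.1% were. Hspa1a, among the lower genes in both fractions, passed the filter only through the astrocytes and had to differ. The longer form of 3 units, GAANNTTCNNGAA on either strand, which contains the shorter one, was present in Dnajb6 and Hsph1 and in 0.662% of all genes. The stretches of a gene that was higher (Hspb1, chr5:135887792-135887839), one that was lower (Dnaja4, at its second listed start site, chr9:54699459-54699524), one that did not pass the threshold (Dnaja1, chr4:40722334-40722361) and one with the longer form (Dnajb6, chr5:29735842-29735874), all on the plus strand, are given with the element in capitals.
Hspb1: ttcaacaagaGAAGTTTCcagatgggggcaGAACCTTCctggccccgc
Dnaja4: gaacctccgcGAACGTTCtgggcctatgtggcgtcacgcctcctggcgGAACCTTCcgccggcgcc
Dnaja1: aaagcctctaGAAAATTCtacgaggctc
Dnajb6: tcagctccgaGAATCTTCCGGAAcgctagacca
Hspb1 and Dnaja4 each hold 2 matches in these stretches, and their fold changes had opposite signs.

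No chaperone gene passed the adjusted threshold between SB28 cells with and without mKate2. Of 64 tested chaperone genes, 0 were higher and 0 lower in mKate2+ than in mKate2- cells at an adjusted P value below 0.05 in edgeR, where 0% of all 11854 genes were higher and 0% lower, and DESeq2 also called 0. The smallest adjusted P value was 0.923. At an unadjusted P value below 0.05, 1 chaperone gene was higher and 0 lower, while 0.759% of all genes were higher and 1.27% lower. A looser threshold, modelled on the rule that the study used for upregulated genes and applied here in both directions, asked for a fold change above 1.5, P below 0.05 without adjustment and, read here as a mean over libraries, more than 50 normalized counts. It called 0 chaperone genes, against 0.194% of all genes higher and 0.169% lower.

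The gene with the smallest unadjusted P value was Hspbp1, the inhibitor of HSP70. It was measured at 47.9, 44.0 and 46.8 CPM in mKate2- and 52.0, 50.7 and 54.7 CPM in mKate2+ libraries, so the 2 fractions did not overlap, with a log2 fold change of 0.23 ± 0.08 (unadjusted P = 0.0217, adjusted P = 0.923, edgeR). Without mKate2+ replicate 2 the value was 0.21 (unadjusted P = 0.0274). Next came Dnaja3 and Dnajb11 on the higher side, at 0.16 ± 0.08 and 0.16 ± 0.08, and Dnajc1, Dnajc13 and Hspa4l on the lower side, at -0.14 ± 0.10, -0.19 ± 0.14 and -0.13 ± 0.12. With 1 library left out, Dnajc1 ran from -0.20 to -0.09 and Hspa4l from -0.22 to -0.03. Dnajc13, the endosomal member, stood at 147, 141 and 142 CPM in mKate2- and 150.01, 91.0 and 125 CPM in mKate2+ cells. Its low value in mKate2+ replicate 2 made most of the difference, since it was -0.06 without that library.

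The intervals were narrow for most genes. The median SE was 0.105 on the log2 scale, and the 95% interval of the difference lay within 1.5-fold in either direction for 55 of 64 genes and within 2-fold for 61. For Hspa8 the interval of the log2 difference was -0.24 to 0.20, for Hsp90ab1 -0.19 to 0.19, for Hsp90aa1 -0.32 to 0.24, for Hspa5 -0.27 to 0.29 and for Cct3 -0.14 to 0.30. The values ran from -0.35 (Hspa1l, a testis gene at 0.407 to 1.31 CPM in SB28 cells) to 0.49 (Hspb11), with a median of 0.02 against 0.003 for all genes. Hspb11, the cilia gene, stood at 12.7, 10.1 and 10.8 CPM in mKate2- and 10.2, 23.9 and 10.6 CPM in mKate2+ cells, and mKate2+ replicate 2 alone was high. Without that library its value was -0.10, and the chaperone genes ran from -0.37 (Dnajc28) to 0.23 (Dnaja4), again with 0 past the adjusted threshold and with Hspbp1 at an unadjusted P value below 0.05. The plot of deviations by library shows the wider scatter of this library.

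**Figure D5:**
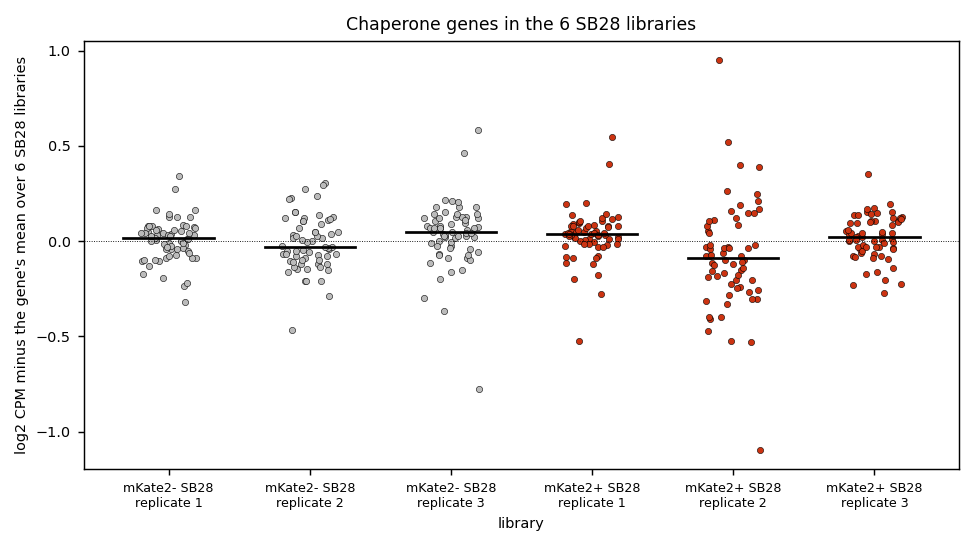
Log2 CPM of each of the 64 tested chaperone genes (points) minus the mean of that gene over the 6 SB28 libraries, by library; lines mark the median. mKate2+ replicate 2 has the lowest median, -0.09, and the widest range, from -1.10 to 0.95.

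Several expressed genes passed the threshold in neither comparison with astrocytes. Among those not yet given, Dnaja2, a cytosolic partner of HSC70, had log2 fold changes of -0.21 and -0.19, and Dnajc14 of -0.04 and 0.00243. Dnajc8, found with the spliceosome, had 0.18 and 0.16, and Dnajc9, a histone chaperone, 0.11 and 0.28. Dnajc4, Dnajc12, Dnajc17 and Dnajc27 lay between -0.42 and 0.26 in both fractions. The direction of some rested on 1 library. Dnajc12 stood at 1.06, 1.80 and 6.55 CPM in astrocytes, and without replicate 3, the high one, its values turned to 0.83 (adjusted P = 0.0679) and 0.68 (adjusted P = 0.151). In mKate2+ cells Dnajc4 and Dnajc14 turned to -0.05 and -0.04 without astrocyte replicate 3, and to -0.22 and -0.02 without mKate2+ replicate 2. Hspb11 had -0.63 and -0.13, with astrocytes at 22.2, 18.7 and 11.3 CPM. It passed as lower in mKate2- cells without astrocyte replicate 3 (-0.87, adjusted P = 0.00267), and in mKate2+ cells it had -0.39 without that library and -0.70 (adjusted P = 0.103) without mKate2+ replicate 2.

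The remaining genes were close to silent. Of the 78 genes, 12 did not pass the filter in the comparisons with astrocytes, and 4 of these, Cct8l1, Dnajb8, Dnajc5b and Dnajc5g, had at most 2 reads in any library, with 0 reads for Cct8l1. Cct6b, the testis form of the sixth subunit, had 0.204 to 0.484 CPM in astrocytes and at most 0.117 CPM in SB28 cells. Dnajb3, Dnajb7, Dnajc6, Hspb3 and Hspb9 stayed below 1 CPM throughout, and Dnajc22 reached 2.19 CPM in astrocyte replicate 3 only. Dnajb13, a protein of the radial spokes of motile cilia, had 1, 1 and 321 reads in the astrocyte libraries, or 0.0409, 0.0306 and 9.14 CPM, and at most 1 read in an SB28 library. The high one was astrocyte replicate 3, the library with the high Foxj1. Hspa1a and Hspb7 were not tested between the SB28 fractions.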

How the data were processed

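RNA was sequenced from 9 sorted populations, 3 libraries each of astrocytes, mKate2- SB28 cells and mKate2+ SB28 cells. The values used are raw read counts per Ensembl gene, which the authors deposited after trimming with Trimmomatic 0.36, alignment to GRCm38 with STAR 2.5.2b and counting of unique hits with featureCounts of Subread 1.5.2. The annotation release and strand setting are not given in the sources used here. Gene symbols, biotypes and exons came from GENCODE M21, and promoters from RefSeq.

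Each comparison used the 6 libraries of its groups in edgeR 4.0.16 (R 4.3.3) with TMM factors, genes above 1 CPM in at least 2 libraries, the quasi-likelihood test and Benjamini-Hochberg adjustment over all genes tested. SE is the log2 fold change divided by the root of F. P values measure the spread between co-cultures. Alternatives were DESeq2 1.42.0, other size factors and filters, a fit to all 9 libraries, a replicate block, removal of a length trend by loess (limma 3.58.1), a fold threshold and leaving out each library. The code was tested on simulated data. The members and lists were chosen with earlier results of these data known.

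Genes always named were Hspa1a, Hspa1b, Hspa8, Hspa5, Hspa2, Hspa4, Hsph1, Hsp90aa1, Hsp90ab1, Hsp90b1, Hspb1, Hspb8, Dnaja1, Dnajb1, the Cct subunits, Tcp1 and Hsf1. Added were the 8 highest and 8 lowest called genes in each comparison with astrocytes, the 3 smallest P values in each direction between the SB28 fractions, and genes of related lists called in both comparisons with a log2 fold change beyond 1. Others were named after their values were seen.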

Additional observations from a re-analysis of the deposited data

How the results depend on the processing

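With a log2 fold change above 1 also required, the calls fell to 6 higher and 8 lower for mKate2- and 7 and 9 for mKate2+ cells. Of all genes, 11.5% and 22.4% passed for mKate2- and 12.2% and 22.8% for mKate2+ cells. With the length trend removed, 39 were higher and 9 lower in each comparison, but the median of all genes moved up by 0.48 and 0.49 as well. Hspb8 then turned to 0.20 in mKate2- and 0.15 in mKate2+ cells. Hspa8, which passed no threshold, took the other sign with upper-quartile factors (-0.0178 and -0.0416), with at least 10 counts in each library (-0.0120 and -0.0227) and, in mKate2+ cells, with total counts alone (-0.0109). With 1 library left out, Hspa8 ran from -0.13 to 0.20 in mKate2- and from -0.15 to 0.19 in mKate2+ cells. The counts of higher genes then ran from 21 to 31 and from 21 to 26, and those of lower genes from 13 to 19 and from 11 to 15. In the same fits the median of all genes ran from -0.04 to -0.01 and from -0.03 to 0.01. The shares of all genes called in them are not given, so these counts describe the processing only. The causes were not tested. Of 73 calls on the genes chosen by the naming rule, 65 kept an adjusted P below 0.05 under each alternative with a value. Alternatives with a fold threshold were set aside, which left 14. For Hspa1a in both comparisons and Hspb7 in mKate2+ cells there were 13, since these were not tested at 10 counts in each library. The calls of Hspa1a and Hspb7 in both comparisons are among the 65. These genes passed the filter only through the astrocytes and had to differ, so nothing is read from their kept calls. The 8 calls that were lost under an alternative were those of Cct4, Hsp90ab1 and Hspa4 in both comparisons, Hsp90b1 in mKate2- and Hsp90aa1 in mKate2+ cells.

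Pairing by replicate number could not be established. The labels tie no number to 1 co-culture, and between the SB28 fractions the deviations of same-numbered libraries correlated at r = 0.110 and 0.275 in 2 pairs and -0.0298 in the other. With the replicate block, the calls were 27 higher and 18 lower for mKate2-, 23 and 13 for mKate2+ cells, and 0 between the SB28 fractions, where 0 passed under the other alternatives too. In the comparisons with astrocytes, the median of all genes moved by 0.02 and 0.01 with the block. The shares of all genes called in that fit are not given, so these counts describe the processing only. With 3 libraries per group, small differences could be missed.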

Other observations

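Of the 5 mitochondrial chaperones that the symbol rule leaves out, 4 passed as higher for mKate2- and 3 for mKate2+ cells, and 0 as lower. Of all genes, 29.3% and 28.0% passed as higher and 33.8% and 32.1% as lower. Dnajc19 lost its call in mKate2- cells (0.46) whichever of the 6 libraries was left out (0.36 to 0.52), and passed in mKate2+ cells without mKate2+ replicate 1 (1.17). Hspd1, the HSP60 ring of the matrix, stood at 369.7, 336 and 312 CPM in the astrocyte libraries, 694, 663 and 837 in the mKate2- libraries and 779.8, 555 and 809 in the mKate2+ libraries. The groups did not overlap, with log2 fold changes of 1.12 ± 0.14 (SE, adjusted P = 0.000289) in mKate2- and 1.14 ± 0.16 (adjusted P = 0.000742) in mKate2+ cells (edgeR). Hspa9, the mitochondrial HSP70, had log2 fold changes of 0.87 ± 0.11 and 0.86 ± 0.15. Hspe1, the lid of HSP60 and a short mRNA, had 0.81 ± 0.20 and 1.37 ± 0.31, with 289 CPM in mKate2+ replicate 2 against at most 169 CPM in the other SB28 libraries.

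Immediate-early genes, transcription factors and others that cells switch on within minutes of a stimulus, were also measured. Of the 10 listed, 4 passed as lower for mKate2- and 6 for mKate2+ cells, and 0 as higher. Of all genes, 33.8% and 32.1% were lower and 29.3% and 28.0% higher. The count of lower genes fell to 2 for mKate2- cells without astrocyte replicate 2 or mKate2- replicate 1 or 3, and to 3 for mKate2+ cells without astrocyte replicate 2 or mKate2+ replicate 1 or 3. Without astrocyte replicate 3 Ier2 passed as higher in both (0.69 and 0.58). Jun, a subunit of the AP-1 factor, stood at 459, 422 and 228 CPM in the astrocyte libraries, 205, 265 and 210.1 in the mKate2- libraries and 206, 224 and 197 in the mKate2+ libraries. Egr1, a zinc finger factor, stood at 131, 239.9 and 309 CPM in the astrocyte libraries, 51.2, 182 and 117 in the mKate2- libraries and 49.0, 101 and 111 in the mKate2+ libraries, and both varied widely among the astrocyte libraries. Jun lost its call in both comparisons whichever library other than astrocyte replicate 3 was left out (-0.82 to -0.50 and -0.83 to -0.56). Egr1 lost its call in mKate2+ cells without astrocyte replicate 2 (-1.27) or 3 (-1.03), and passed in mKate2- cells without mKate2- replicate 2 (-1.41, adjusted P = 0.0376).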
